A study of Mus musculus with 16 samples.

Results

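The 9 genes described here are imprinted genes of mouse chromosome 7 in 2 clusters, the Peg3 cluster (Peg3, Usp29 and Zim1) and the Snrpn-Ndn cluster, the mouse counterpart of the Prader-Willi and Angelman region (Ndn, Magel2, Mkrn3, Peg12, Snrpn and Ube3a). They were chosen by name, and all 9 of 9 were found by symbol among the 54453 genes of the table. Total RNA of 16 immortalised fibroblast lines was sequenced, with 1 library per line. Mouse embryonic fibroblasts (MEFs) of a pair of sibling C57BL/6J embryos were immortalised by serial passaging into 2 parental lines, named MEF-1 and MEF-2, and single cells of each were grown into 7 clonal lines. The lines used here were neither edited nor treated and were grown in the same medium with serum. Each value is a regularised log (rlog), a log2 expression value that DESeq2 shrinks to a gene's own average. It is not corrected for transcript length, so the level of each gene is compared between lines. Only differences, spreads and correlations are set beside those of other genes. MEF-1 came from a male and MEF-2 from a female embryo. The 7 clonal lines of a set share 1 embryo and 1 immortalisation, so tests between the sets measure the spread between clones, not between embryos.

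An imprinted gene is transcribed mainly from the chromosome of one parent, under control of a region whose DNA methylation was set in the germ line of one parent and is then copied at each cell division. In the Peg3 cluster, Peg3 and Usp29 are read from the paternal chromosome in opposite directions out of one methylated region, and Zim1 next to them is read from the maternal one. In the Snrpn-Ndn cluster, Snrpn, Ndn, Magel2, Mkrn3 and Peg12 are paternal, whereas Ube3a is maternal in neurons and read from both chromosomes in most other cells. Because C57BL/6J is inbred, these RNA values do not separate the parental copies.

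Promoter sequences of the genes whose clonal pattern is followed below are given from RefSeq (GRCm38.p6, the coordinates of mm10), each as the 250 bases before the transcription start, read 5′ to 3′ on the strand of the gene. RefSeq windows matched all 9 genes, with 12 windows because Snrpn has several starts. Peg3 (chr7:6730420-6730669, minus strand) and Usp29 point away from each other with 163 bases between their starts, so the Peg3 window also runs over the start of Usp29. Zim1 lies at chr7:6696433-6696682 (minus strand), Ndn at chr7:62348027-62348276 (plus strand) and Mkrn3 at chr7:62420154-62420403 (minus strand). The gene annotation used for the values starts Ndn earlier, at 62346569, so the Ndn window lies inside that gene. Capitals mark matches on either strand to 4 short motifs, which do not overlap in these windows and were chosen with the sequences in view.
Peg3: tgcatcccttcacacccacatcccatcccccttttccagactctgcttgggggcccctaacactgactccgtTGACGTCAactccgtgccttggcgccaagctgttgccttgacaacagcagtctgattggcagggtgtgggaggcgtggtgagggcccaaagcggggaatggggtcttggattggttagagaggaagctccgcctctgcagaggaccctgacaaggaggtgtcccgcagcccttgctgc
Zim1: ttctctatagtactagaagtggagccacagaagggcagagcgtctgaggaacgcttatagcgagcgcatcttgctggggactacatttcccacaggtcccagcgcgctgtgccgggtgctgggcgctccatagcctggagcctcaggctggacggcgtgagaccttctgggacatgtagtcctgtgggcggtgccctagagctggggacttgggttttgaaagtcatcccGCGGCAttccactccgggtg
Ndn: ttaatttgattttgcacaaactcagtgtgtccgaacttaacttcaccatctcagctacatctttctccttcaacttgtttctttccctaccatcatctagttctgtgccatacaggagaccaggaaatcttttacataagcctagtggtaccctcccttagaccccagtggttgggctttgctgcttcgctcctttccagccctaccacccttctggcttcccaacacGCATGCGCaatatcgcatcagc
Mkrn3: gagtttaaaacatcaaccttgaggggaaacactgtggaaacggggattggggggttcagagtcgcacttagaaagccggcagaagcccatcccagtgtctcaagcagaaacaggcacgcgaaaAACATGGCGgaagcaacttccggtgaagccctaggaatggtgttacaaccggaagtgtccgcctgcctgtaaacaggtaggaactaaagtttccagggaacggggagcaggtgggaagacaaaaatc
The Peg3 window held TGACGTCA, the cAMP response element, 178 bases before the start of Peg3, as did 1.55% of the 32817 windows in the table. The Zim1 window held TGCCGC, the hexamer that ZFP57 binds when methylated, on the other strand 20 bases before the start, against 8.68% of all windows. Ndn held GCATGCGC, the NRF1 motif, 22 bases before its RefSeq start, against 2.25%. Mkrn3 held AANATGGCG, the YY1 motif, against 1.12%, and the same motif stood in the window of Ube3a. The other windows of the 9 genes held none of these letters. A match is a description of the sequence and does not show that the factor was bound.

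Collagen genes, Fn1 and Vim were high in all lines, but the sets were not alike. Of 11 fibroblast markers, 4 were lower in the MEF-2 clonal lines and 1 was higher, with the collagen-binding proteoglycans Dcn and Lum lower by far (log2 differences of -4.74 and -3.68, limma on all genes). The 1 that was higher was the surface glycoprotein Thy1 (2.59, adjusted p = 0.00392), which was low in the MEF-1 clones at 2.72 to 3.43 against 6.12 in their parental line, and was at 3.42 to 8.02 in the MEF-2 clones against 10.22 in theirs. The mean level over the list was 14.57 to 15.08 in MEF-1 and 13.66 to 14.55 in MEF-2. Of 6 neuronal markers, 4 were tested, 2 were higher in MEF-2 and 1 was lower, Stmn2 differed by 4.60, and Snap25 was listed at 0 in all lines. The mean level over the neuronal list was 3.67 to 4.17 in MEF-1 and 4.21 to 5.39 in MEF-2. The part of these marker differences in the results below was not tested, and in bulk RNA fewer cells of a type and less RNA per cell cannot be told apart. Over the 15285 protein-coding genes tested, 56.1% differed between the sets of clonal lines at an adjusted p under 0.05 (27.5% higher and 28.6% lower in MEF-2), so a call between MEF-1 and MEF-2 was the common state.

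Of the 9 imprinted genes, 3 were called higher in MEF-2 clonal lines (Magel2, Peg12 and Ndn), 1 was called lower (Ube3a) and 5 were not called, which is no larger a share than over all genes. The median difference of the 9 was 0.29 on the log2 scale against -0.0043 over all tested genes. Only Peg12 had deposited values that did not overlap between the sets, a state that 25.9% of tested genes showed. After the level of chromosome 7 was taken away, Peg12 did overlap and Ube3a did not, and the share of tested genes was not taken on that scale. The differences, and the differences after the level of chromosome 7 was taken away, are shown in the plot of intervals.

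**Figure D1:**
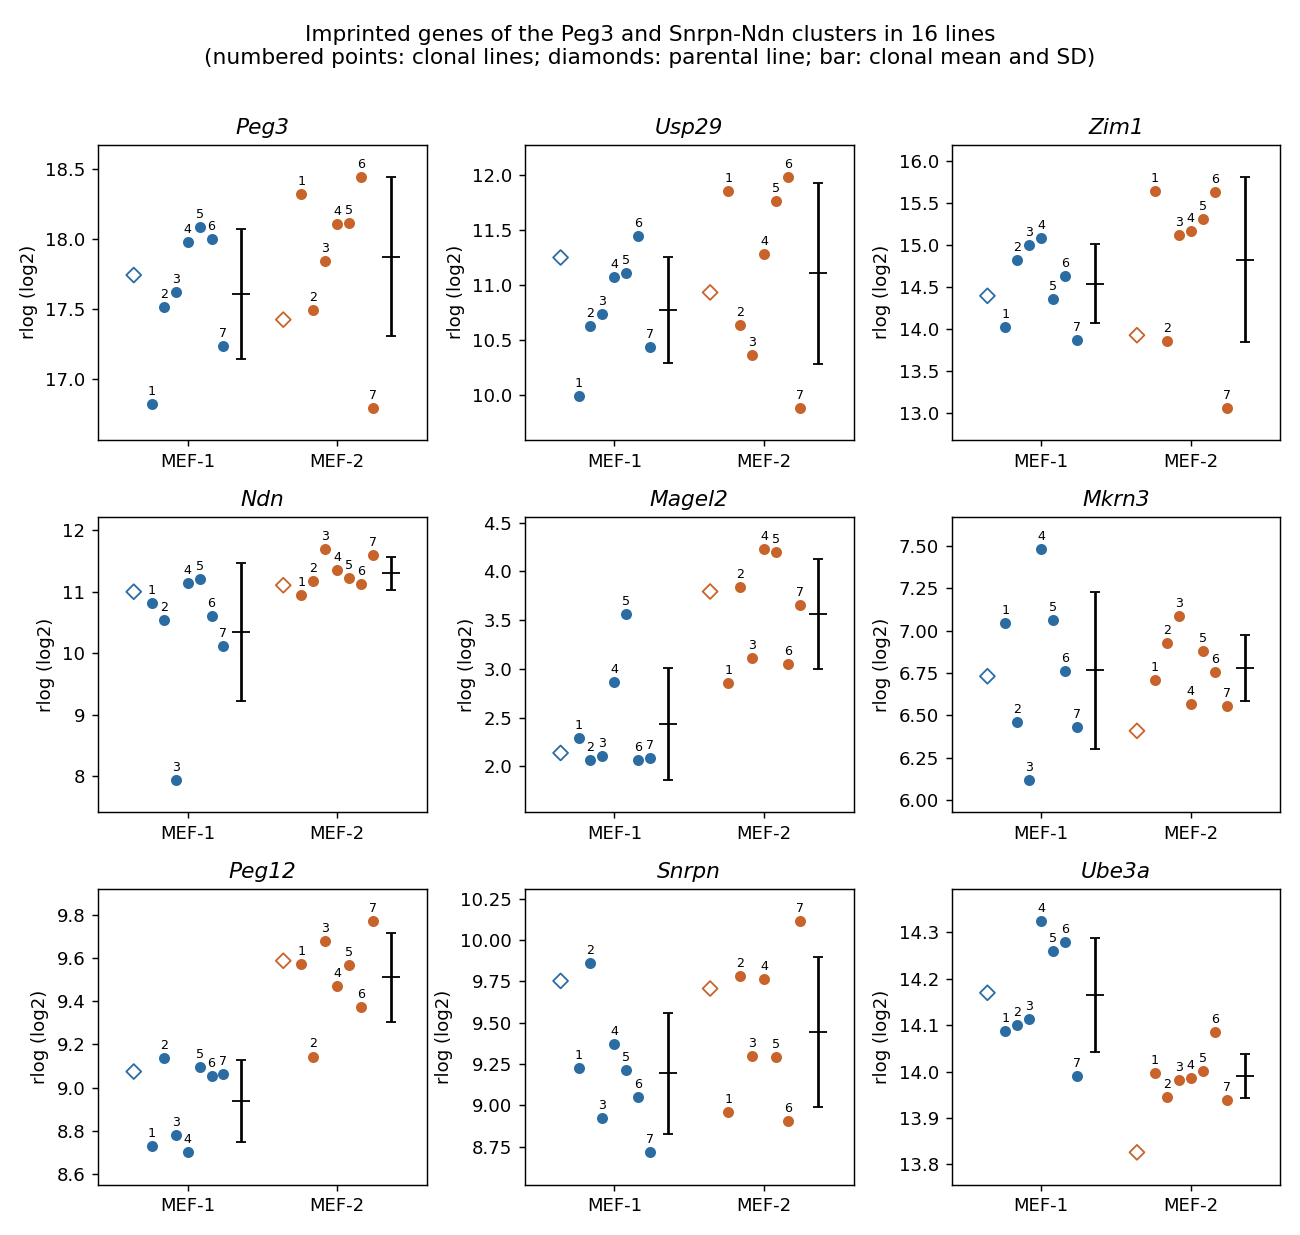
Rlog value (log2) of each imprinted gene in the 16 lines. Numbered points are the 7 clonal lines of MEF-1 (blue) and MEF-2 (orange), diamonds the parental lines, and the bar on the right of each set its clonal mean and SD. Peg12 is the gene whose MEF-1 and MEF-2 points do not overlap, and clone 3 of MEF-1 lies apart for Ndn at 7.94.

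In the Peg3 cluster the sets did not differ beyond their spread, and clones of one parental line differed widely. Usp29 moved with Peg3 across the clones of both sets, and Zim1 moved with Peg3 past the test in MEF-2 but not in MEF-1. Peg3 (ENSMUSG00000002265; chr7:6703892-6730431, minus strand, 10 exons), which encodes a zinc finger protein of growth and maternal behaviour, read 16.82, 17.51, 17.62, 17.97, 18.08, 18.00 and 17.23 in MEF-1 clones 1 to 7 and 17.74 in the MEF-1 parental line. In MEF-2 clones 1 to 7 it read 18.32, 17.49, 17.84, 18.11, 18.11, 18.44 and 16.79, and 17.42 in the parental line. Clone 1 was the lowest of MEF-1 and clone 7 the lowest of MEF-2, and the sets overlapped over most of their range. The means were 17.61 ± 0.46 (SD, n = 7) and 17.87 ± 0.57 (SD, n = 7), a difference of 0.27 with a limma 95% interval of -0.29 to 0.82 (adjusted p = 0.397).

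Usp29 (ENSMUSG00000051527; chr7:6730578-6967219, plus strand, 9 exons), a ubiquitin-specific protease gene that shares the start region with Peg3, read 10.00, 10.63, 10.74, 11.07, 11.11, 11.44 and 10.44 in MEF-1 clones 1 to 7 and 11.25 in the parental line. In MEF-2 it read 11.85, 10.64, 10.36, 11.28, 11.76, 11.98 and 9.89, and 10.93 in the parental line. The lowest clones were again clone 1 of MEF-1 and clone 7 of MEF-2. Means of the sets differed by 0.33 (limma 95% interval -0.36 to 1.03, adjusted p = 0.399).

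Zim1 (ENSMUSG00000002266; chr7:6671269-6696450, minus strand, 8 exons), a zinc finger gene read from the opposite parental copy, had MEF-1 values of 14.03, 14.82, 15.00, 15.09, 14.36, 14.63 and 13.87, with 14.40 in the parental line. In MEF-2 it had 15.64, 13.86, 15.12, 15.16, 15.31, 15.63 and 13.07, with 13.93 in the parental line. Clone 7 was the lowest of both sets, and clone 2 of MEF-2 was 1.30 below its set's median. Means of the sets differed by 0.29 (limma 95% interval -0.51 to 1.08, adjusted p = 0.530).

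Across the clones, Usp29 followed Peg3 in both sets. Pearson's r was 0.961 in MEF-1 (exact permutation p = 9.92e-04, adjusted over 12 relations 0.00595; rho = 0.964) and 0.908 in MEF-2 (exact permutation p = 0.00258, adjusted 0.0103; rho = 0.964). Without the 2 lines farthest from the Peg3 median, r was 0.940 and 0.913, so the relation did not rest on the lowest clones. Zim1 followed Peg3 in MEF-2 (r = 0.977, exact permutation p = 5.95e-04, adjusted 0.00595; rho = 0.964; r = 0.913 without the 2 farthest lines). In MEF-1 the relation of Zim1 and Peg3 did not pass (r = 0.595, exact permutation p = 0.161, adjusted 0.319; rho = 0.393; r = 0.669 without the 2 farthest lines). Whether MEF-1 and MEF-2 differ in it was not tested. Taking the chromosome 7 median of each line away left r of Peg3 and Usp29 at 0.954 and 0.913 and that of Peg3 and Zim1 in MEF-2 at 0.976. That of Peg3 and Zim1 in MEF-1 was then 0.526 (exact permutation adjusted p = 0.377), and -0.365 without the 2 farthest lines.

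**Figure D2:**
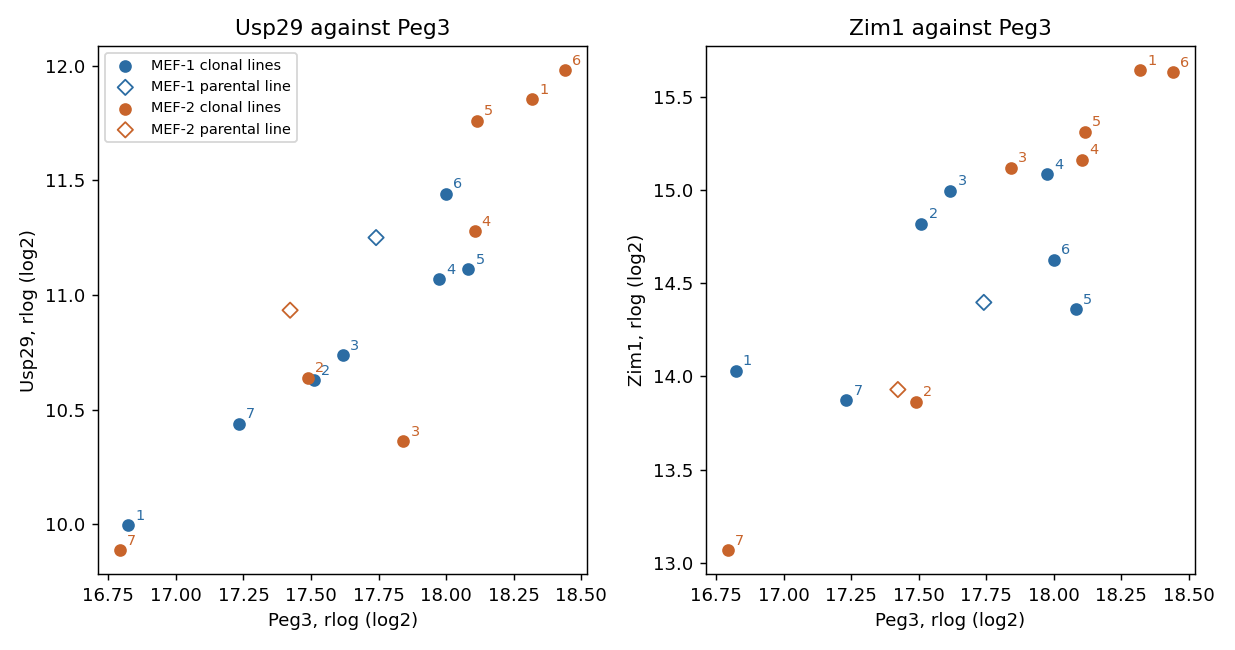
Usp29 (left) and Zim1 (right) against Peg3, rlog (log2), in clonal lines (numbered points) and parental lines (diamonds) of MEF-1 (blue) and MEF-2 (orange). Usp29 rises with Peg3 in both sets (r of 0.961 and 0.908), and clone 7 of MEF-2 is the lowest for all 3 genes.

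Clone 7 of MEF-2 lay below the median of its set by 1.31 for Peg3, 1.39 for Usp29 and 2.10 for Zim1. Its chromosome 7 median was 0.03, inside the range of the MEF-2 clones, and the median of the 75 genes within 5 Mb of the Peg3 cluster was -0.02 there. In clone 1 of MEF-1 the same genes lay 0.80, 0.74 and 0.60 below the set's median, with a chromosome 7 median of -0.15. The SD of Usp29 between MEF-2 clones, 0.82, exceeded that of 98.9% of the 4356 tested genes with an average within 1 rlog unit of its own, and the SD of Zim1, 0.98, that of 99.3% of 1125 such genes. In MEF-1 the same shares were 93.5% and 96.7%. For Peg3 itself the share was 89.8% in both sets, over only 49 genes of like average.

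Over the 14 clonal lines, after each set's mean was taken away, Usp29 was the gene with the highest correlation with Peg3 of all tested genes (r = 0.915), before Tspan3 (0.881) and Deaf1 (0.879), and Zim1 ranked 12 (0.846). For Usp29 the leading genes were Peg3, Neurl2 (0.869) and Arl2bp (0.867). For Zim1 they were Ache (0.955), Bicc1 (0.931) and Dag1 (0.920), all on other chromosomes. The points of these correlations share their libraries, and they are given as a description.

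In the Snrpn-Ndn cluster, the single-exon genes at its distal end went different ways. Ndn (ENSMUSG00000033585; chr7:62346569-62350262, plus strand), which encodes necdin, a growth-restraining MAGE protein, read 10.81, 10.54, 7.94, 11.14, 11.20, 10.61 and 10.12 in MEF-1 clones 1 to 7 and 11.00 in the parental line. In MEF-2 clones it read 10.94, 11.17, 11.69, 11.35, 11.22, 11.12 and 11.59, and 11.11 in the parental line. Clone 3 of MEF-1 stood alone, 2.67 below the median of its set and 2.19 below the next lowest clone, while the MEF-2 clones kept within 0.75 of each other. The difference between the sets was 0.96 (SE 0.39) and just passed the limma test (adjusted p = 0.0497), but 19 of 24 alternatives lost that call (adjusted p from 0.0133 to 0.0840 over them). Without clone 3 of MEF-1 the difference was 0.56 (limma adjusted p = 0.0133), and all 7 MEF-2 clones lay above the MEF-1 median.

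Magel2 (ENSMUSG00000056972; chr7:62377010-62381640, plus strand), a MAGE gene whose protein directs a ubiquitin ligase to recycling endosomes, was low everywhere. It read 2.29, 2.07, 2.11, 2.87, 3.57, 2.06 and 2.09 in MEF-1 clones 1 to 7 and 2.14 in the parental line, and 2.85, 3.84, 3.11, 4.23, 4.20, 3.05 and 3.66 in MEF-2 clones with 3.79 in the parental line. Most MEF-1 lines lay together near 2, and only clones 4 and 5 reached into the MEF-2 range. The 5 lowest MEF-1 lines (clones 6, 2, 7 and 3 and the parental line) stood in the same order for Magel2 as for the level that the least expressed genes take in each line, and such values do not tell few reads from none. The difference of 1.13 (SE 0.28, limma adjusted p = 0.00352) is therefore one of rlog values and gives no fold, and all 7 MEF-2 clones lay above the MEF-1 median.

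Mkrn3 (ENSMUSG00000070527; chr7:62417593-62420139, minus strand), a RING finger gene known from the timing of puberty, read 7.04, 6.46, 6.12, 7.48, 7.06, 6.76 and 6.43 in MEF-1 clones 1 to 7 with 6.73 in the parental line. In MEF-2 clones it read 6.71, 6.93, 7.08, 6.57, 6.88, 6.76 and 6.55, with 6.41 in the parental line. Clone 3 was the lowest of MEF-1 and the highest of MEF-2, and the MEF-1 clones spread wider. The difference was 0.02 (limma 95% interval -0.39 to 0.42, adjusted p = 0.948), with the sign turning under several settings.

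Peg12 (ENSMUSG00000070526; chr7:62461871-62464510, minus strand), a FRAT family gene whose protein binds the kinase GSK3, had deposited values that did not overlap between the sets. Its values did overlap once the chromosome 7 median was taken away. It read 8.73, 9.14, 8.78, 8.70, 9.10, 9.05 and 9.06 in MEF-1 clones 1 to 7 with 9.07 in the parental line, and 9.57, 9.14, 9.68, 9.47, 9.57, 9.37 and 9.77 in MEF-2 clones with 9.59 in the parental line. Every MEF-2 clone lay above every MEF-1 clone, though the lowest MEF-2 clone and the highest MEF-1 clone, both number 2, differ only past the decimals shown. The means were 8.94 ± 0.19 (SD, n = 7) and 9.51 ± 0.21 (SD, n = 7), 1.49-fold apart on the rlog scale (log2 difference 0.57, SE 0.11, limma adjusted p = 4.63e-04), and every alternative setting kept this call. The 2 parental lines stood in the same order as their clones.

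Clone 3 of MEF-1 was the lowest of its set for Ndn and Mkrn3, and was 0.64 below the set's median for Mkrn3. It was also the lowest for Gm38393, an entry that overlaps Snrpn on the same strand, at 0.72 below the median. Its other values were not all low: Zim1 lay 0.37 above the median, and Peg12 and Snrpn lay 0.27 and 0.29 below it. Its chromosome 7 median, -0.16, was the lowest of the MEF-1 clones. Over the 14 clones, r of Ndn and Mkrn3 was 0.737 with that clone and 0.669 without it, and Mkrn3 ranked 21 among the genes most like Ndn. The pairs of neighbours Ndn and Magel2 (r = 0.501 in MEF-1 and 0.163 in MEF-2), Magel2 and Mkrn3 (0.650 and -0.197) and Mkrn3 and Peg12 (-0.342 and -0.199) did not pass the exact permutation test, with adjusted p from 0.275 to 0.700. Without the 2 lines farthest from the median of the first gene, r moved to 0.828 and 0.888 for Ndn and Magel2, to 0.637 and -0.516 for Magel2 and Mkrn3, and to -0.548 and -0.448 for Mkrn3 and Peg12, so the values of the first pair in particular depend on single clones. With the chromosome 7 median taken away, Mkrn3 and Peg12 in MEF-1 had r = -0.674 (exact permutation p = 0.0929, adjusted 0.253).

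**Figure D3:**
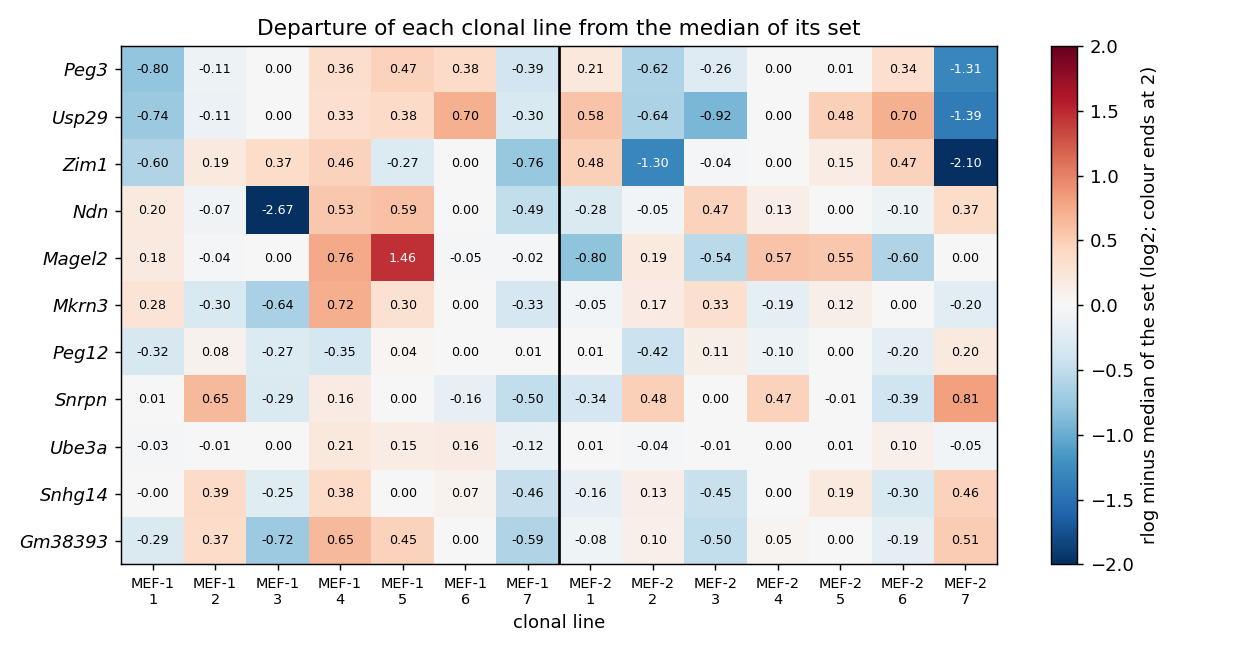
Rlog value of each clonal line minus the median of its set (log2), with genes in rows and the 7 clones of MEF-1 and of MEF-2 in columns. Blue cells lie below the set's median, among them Ndn in clone 3 of MEF-1 (-2.67) and the Peg3 cluster in clone 7 of MEF-2 (-1.31, -1.39 and -2.10).

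The genes most like Ndn over the clones were Gdf6 (r = 0.841), Plac9a (0.833) and Dctn5 (0.830), those most like Magel2 were Alg8 (0.934), Rnf26 (0.874) and Ccne2 (0.860), those most like Mkrn3 were Paqr6 (0.913) and Plvap (0.900), and those most like Peg12 were Nxph3 (0.773), Asgr1 (0.772) and Gm6377 (0.766). For Ndn the values within MEF-2 alone were 0.432, 0.355 and 0.237, against 0.923, 0.852 and 0.899 in MEF-1, which holds clone 3.

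Snrpn (ENSMUSG00000102252; chr7:59982495-60140219, minus strand, 11 exons) encodes the spliceosomal protein SmN, and its several starts include that at the imprinting centre of the region. It read 9.22, 9.86, 8.93, 9.37, 9.21, 9.05 and 8.72 in MEF-1 clones 1 to 7 and 9.75 in the parental line. In MEF-2 clones it read 8.96, 9.78, 9.30, 9.76, 9.29, 8.91 and 10.11, and 9.71 in the parental line. The sets overlapped over nearly their whole range, and the difference was 0.25 (limma 95% interval -0.19 to 0.69, adjusted p = 0.312). Snurf, read from the same transcript, was listed at 0 in all lines, and Gm38393 (chr7:59974149-60005064) overlaps Snrpn on the same strand, so reads of the locus could be split between these entries. Gm38393 itself went with Snrpn over the 14 clones (r = 0.671). Snhg14 (chr7:59307924-59975759, minus strand), the long host transcript of the snoRNAs that runs on from Snrpn towards Ube3a, is no protein-coding gene and was not tested. It read 6.05 to 6.90 in MEF-1 clones and 6.26 to 7.17 in MEF-2 clones, and its r with Snrpn was 0.804 over the 14 clones.

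Ube3a (ENSMUSG00000025326; chr7:59228750-59311536, plus strand, 13 exons), the ubiquitin ligase gene of Angelman syndrome, had the smallest SD of the 9 genes in both sets. It read 14.09, 14.10, 14.11, 14.32, 14.26, 14.28 and 13.99 in MEF-1 clones 1 to 7 with 14.17 in the parental line, and 14.00, 13.94, 13.98, 13.99, 14.00, 14.08 and 13.94 in MEF-2 clones with 13.83 in the parental line. All 7 MEF-2 clones lay below the MEF-1 median, and only clone 7 of MEF-1 reached into the MEF-2 range. The difference was -0.17 (SE 0.05, limma adjusted p = 0.0110), small beside those of Magel2 and Peg12. In size it exceeded the SD of either set (0.12 in MEF-1 and 0.05 in MEF-2) but not the range of the MEF-1 clones, 0.33. The SD of the MEF-2 clones, 0.05, exceeded that of 6.99% of the 1716 tested genes with an average within 1 rlog unit. In MEF-1 the share was 40.5%. Ube3a and Snhg14 overlap at their ends on opposite strands, the library kit kept strand, and the strand setting used in quantification is not given in the sources used here.

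Snrpn and Ube3a ran against each other in MEF-2 (r = -0.806, exact permutation p = 0.0169, rho = -0.929), but the relation missed the threshold after adjustment (0.0506), was -0.612 without the 2 lines farthest from the Snrpn median, went to -0.638 once the chromosome 7 median was taken away and was 0.242 in MEF-1 (exact permutation p = 0.625). The genes most like Snrpn were Dynlt3 (r = 0.914), the hypoxia factor gene Epas1 (0.914) and Pter (0.900). Those most like Ube3a were Lsm14a (0.923), Ndufa11 (0.875) and Col11a1 (0.875). Ube3a went with Peg3 as well (0.711), but ranked only 97 among the genes most like Peg3.

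As a reference for dosage, the departure of each gene from its mean over the 14 clones was taken in each line. The reference is the median departure of 985 other genes of chromosome 7, minus the median of the autosomes' own medians in that line. It was -0.15, 0.01, -0.16, 0.03, 0.05, -0.08 and -0.11 in MEF-1 clones 1 to 7 and lay between 0.02 and 0.07 in the MEF-2 clones. Clones 1, 2, 3, 6 and 7 of MEF-1 were below every MEF-2 clone. The means were -0.06 ± 0.09 (SD, n = 7) and 0.04 ± 0.02 (SD, n = 7), a difference of 0.10 (two-sided exact permutation test over samples, p = 0.0157). Genes within 5 Mb of the members, centred in the same way, differed by a similar amount. It was 0.10 around the Peg3 cluster (75 genes, exact permutation p = 0.0280) and 0.09 around the Snrpn-Ndn cluster (34 genes, exact permutation p = 0.0804).

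With the chromosome 7 median taken away, 3 of the 9 genes were called, against 56.2% of all tested genes and 53.4% of the 1174 tested genes of chromosome 7. Magel2 kept a difference of 1.03 (limma adjusted p = 0.00496), Peg12 one of 0.47 (adjusted p = 0.00169) and Ube3a went from -0.17 to -0.27 (adjusted p = 2.08e-04). Ndn was at 0.86 and not called (adjusted p = 0.0633, with 0.0205 to 0.103 when single clones were left out). The Peg3 cluster moved closer to 0, with Peg3 at 0.17, Usp29 at 0.23 and Zim1 at 0.19, none called. On this scale the clones of the sets no longer overlapped for Ube3a (lowest of MEF-1 14.09, highest of MEF-2 14.06). For Peg12 they did overlap, with clone 2 of MEF-2 at 9.09 and clone 7 of MEF-1 at 9.18. As deposited, 25.9% of tested genes did not overlap, and the share on the scale relative to chromosome 7 was not taken.

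**Figure D4:**
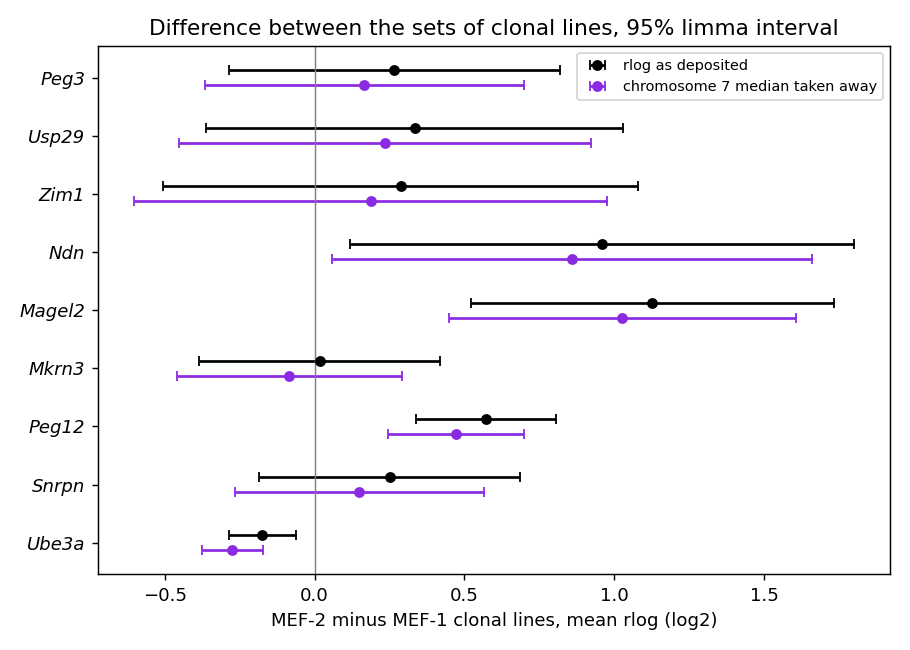
Difference of the clonal means, MEF-2 minus MEF-1 (log2), with limma's 95% intervals, for the rlog values as deposited (black) and after each line's chromosome 7 median was taken away (purple). Intervals, which are not adjusted for the number of genes, keep off 0 on both scales for Ndn, Magel2, Peg12 and Ube3a, and those of the Peg3 cluster span it.

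Each parental line has 1 library, so clones are set against it as counts only. In MEF-2, all 7 clones lay above the parental line for Mkrn3 and for Ube3a, a state that 34.2% of tested genes showed in either direction, and in MEF-1 none of the 9 genes had all 7 clones on one side, against 40.9% of tested genes. Peg3 was above the parental line in 6 of 7 MEF-2 clones and in 3 of 7 MEF-1 clones. Ndn was above it in 6 of 7 MEF-2 clones and 2 of 7 MEF-1 clones, and Snrpn in 3 of 7 and 1 of 7. The parental lines therefore mostly lay within the range of their clones.

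The spread between clones was itself compared between the sets, on the absolute distance of each clone from its set's median. The test called 2 genes in all (0.0131% of those tested, with 1329 at an unadjusted p under 0.05) and none of the 9, of which Ndn alone had an unadjusted p under 0.05. The count of called genes depended on the setting. It was 0 to 5 without single clones and far larger with deviations from the mean, as given in the last section, with no member called. With 7 clones a set this test has little power even for large differences in spread, so the lack of a call does not show equal spread. For Ndn the mean distance was 0.65 in MEF-1 and 0.20 in MEF-2 (limma unadjusted p = 0.0440, adjusted p = 0.566), and without clone 3 of MEF-1 the difference went from -0.45 to -0.11. The SD of Ndn in MEF-1, 1.12, exceeded that of 99.7% of the 4229 tested genes of like average. Of the 14 clones, clone 7 of MEF-2 was at the end of its set most often, as the lowest for 5 of the 9 genes (Peg3, Usp29, Zim1, Mkrn3 and Ube3a) and the highest for 2 (Peg12 and Snrpn). For Mkrn3 and Ube3a it lay only 0.01 and 0.006 below the next clone, and the rest of the 5 are the genes of the Peg3 cluster.

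Genes beside the clusters that are read from both chromosomes differed between the sets as well. Of 13 listed flanking genes 11 were tested, 6 were higher and 3 lower in MEF-2, with a median difference of 0.19. Over all tested genes, 27.5% were higher and 28.6% lower. Gabra5, a subunit of the GABA-A receptor, rose by 1.75 (limma adjusted p = 3.61e-04), Cyfip1, a regulator of actin, by 0.50 and the chloride transporter gene Clcn4 by 0.49. Nipa1, a magnesium transporter gene, fell by 0.65, and the zinc finger gene Zfp551 fell by 0.73. Herc2 and Nipa2 were higher by 0.19 and 0.20 and were no longer called relative to chromosome 7 (adjusted p = 0.0911 and 0.138). Of 7 other imprinted or overlapping transcripts, 6 were matched and Atp10a, a phospholipid flippase gene, was the only one tested (-0.08, adjusted p = 0.744). Zim3 was listed at 0, and Zim2, Zfp264 and the flanking genes Oca2 and Gabrg3 had averages under 0.

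**Figure D5:**
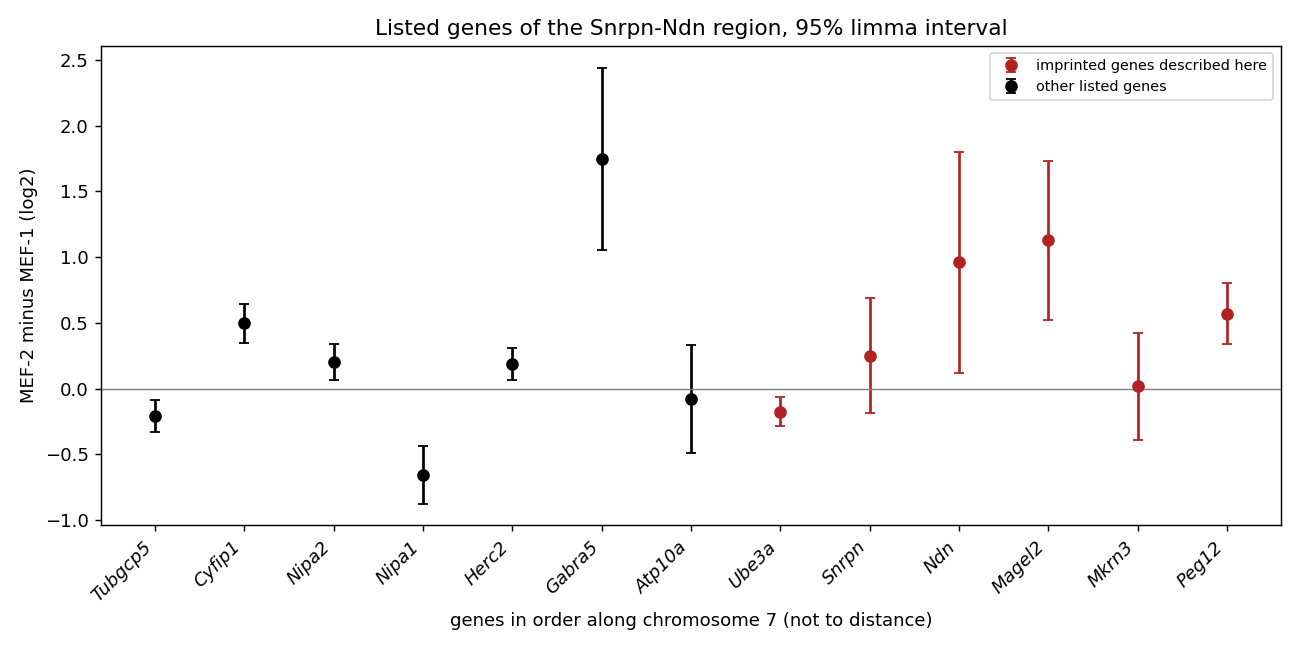
Difference of the clonal means, MEF-2 minus MEF-1 (log2), with limma's 95% intervals, for tested listed genes of the Snrpn-Ndn region in chromosomal order, imprinted genes of the report in red. Of the genes shown, Gabra5 lies highest at 1.75 and Nipa1 lowest at -0.65.

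Lists of genes that work with the imprinted genes, or resemble them, are given by their counts. Over all tested genes, 56.1% were called, 27.5% higher and 28.6% lower in MEF-2, which holds beside the counts of the next paragraph too. Of the 7 other Sm ring proteins, which SmN joins in the spliceosome, 2 were higher in MEF-2 (Snrpe by 0.37 and Snrpg by 0.20), none was lower and 5 were not called, with a median of 0.14. Of 11 genes of the MAGEL2, WASH and retromer machinery, 5 were higher, 3 were lower and 3 were not called, with a median of 0.01. Among them Washc4 rose by 0.46 and Trim27, the ubiquitin ligase that MAGEL2 binds, by 0.22, whereas the protease gene Usp7 fell by 0.24. Of 4 partners of UBE3A, 3 were higher, with Neurl4 by 1.07, and 1 was lower, the conjugating enzyme gene Ube2l3, which fell by 0.19. The 3 include Herc2, which is also among the flanking genes above and lost its call relative to chromosome 7.

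Of 10 relatives of the imprinted genes in sequence, 3 were higher (Nsmce3 by 0.73, Mkrn1 by 0.54 and Usp37 by 0.40), 1 was lower and 6 were not called. The lower one was Frat1, a relative of Peg12, which fell by 0.76, and the other FRAT gene, Frat2, had a difference of -0.11 (limma adjusted p = 0.452). Both lie on chromosome 19, whose median over 464 genes was itself lower in MEF-2 clones (a difference of -0.37, with clones at 0.14 to 0.21 in MEF-1 and -0.24 to -0.17 in MEF-2), and the part of that shift in their values was not tested. Snrpb, the gene of the Sm protein that SmN replaces, differed by 0.06 (limma adjusted p = 0.611). Of 6 factors that keep imprints, 5 were tested and 4 were higher in MEF-2, as were 27.5% of all tested genes. Uhrf1, which brings the methyltransferase to newly copied DNA, rose by 1.15 (adjusted p = 2.70e-04), the corepressor gene Trim28 by 0.55, the methyltransferase gene Dnmt1 by 0.29 and Zfp57 by 0.24, while Zfp445 differed by 0.05 (adjusted p = 0.359). Dppa3 had an average under 0.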

How the data were processed

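Total RNA of 16 lines was sequenced after depletion of ribosomal RNA with a stranded kit. The authors trimmed reads with Trim Galore 0.6.0, quantified mm10 transcripts with Salmon 1.5.2 and deposited log2 values per gene and line from the rlog transformation of DESeq2 1.24.0. How transcripts were summed to genes and whether the transformation was blind are not given in the sources used here. No counts were used, so the depth of the lines is unknown and no counting interval is given. The rlog draws low genes towards their average, which understates their changes.

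Members and lists were chosen with earlier results of these data known. Of 54453 genes, 54200 matched GENCODE mouse release M21 (mm10). Protein-coding genes with an average above 0 (15285) entered limma 3.58.1 (R 4.3.3, trended prior) on 7 against 7 clonal lines, called at a Benjamini-Hochberg adjusted p under 0.05. The same fit was made after each line's chromosome 7 median was taken away, and on absolute deviations from the set's median. Single values and the pairs of neighbours were tested by exact permutation (scipy 1.17.1), two-sided, and the 12 relations adjusted together. Named were the 9 genes, the listed genes and, for each of the 9, the 3 genes most correlated with it, and 2 of these genes are not reported here. Alternatives covered filters, prior, block, scalings, local medians, added parental lines and each clone left out. The scripts were tested on simulated data.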

Additional observations from a re-analysis of the deposited data

Results flagged for a closer look

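Gaps at the lowest and highest line within each set of 7 clonal lines were checked for the 9 genes, Snhg14 and the medians of chromosome 7, of the genes flanking the Peg3 cluster and of those flanking the Snrpn to Ndn region (26 sets of values). A gap above Dixon's 95% critical share of the whole range marked a line as far from the others, and chance marks about 1 in 20 sets, or 1.3 of 26. In all, 2 were marked.

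Ndn in MEF-1 clone 3, at 7.94, lay far below the other 6 MEF-1 clones, the next of which was at 10.12. In the same line Mkrn3 was the lowest of its set at 6.12, and the chromosome 7 median was -0.16.

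Ube3a in MEF-2 clone 6, at 14.08, lay above the other MEF-2 clones, the next of which was at 14.00. The step is 0.08 on the log2 scale.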

How the results depend on the processing

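Of the differences between the sets, Magel2, Peg12 and Ube3a kept their call under every alternative in which they were tested, and Peg3, Usp29, Zim1 and Snrpn stayed uncalled with the same sign. The size of these uncalled differences rested on single clones: leaving out 1 clone gave 0.14 to 0.45 for Peg3, 0.19 to 0.54 for Usp29, 0.15 to 0.58 for Zim1 and 0.14 to 0.36 for Snrpn, and relative to chromosome 7 0.05 to 0.34, 0.09 to 0.44, 0.05 to 0.48 and 0.04 to 0.25. The highest of these values for Peg3, Usp29 and Zim1 on the deposited scale came without MEF-2 clone 7. Magel2 did not pass the filter at the 40th percentile. Leaving out single clones gave 8026 to 8673 called genes and 3 to 4 called members. The call of Ndn was kept under the filter at the 40th percentile and without clone 1, 3, 4 or 5 of MEF-1, and was lost otherwise, with adjusted p of 0.0638 without a filter, 0.0574 without a trend, 0.0510 with a robust prior and 0.0503 with the parental lines added. Mkrn3 turned to -0.026 with the parental lines added, -0.016 with lines centred on the autosomal median, -0.084 with the chromosome 7 median and -0.069 with the median of genes within 5 Mb taken away. Under quantile normalisation it was 0.389 (adjusted p = 0.0989), its largest move, uncalled. Without single clones it ran from -0.091 to 0.136, and relative to chromosome 7 from -0.174 to 0.021. Clone numbers do not pair the lines (correlations of same-numbered clones from -0.13 to 0.20). With the replicate block, Ndn had an adjusted p of 0.0765 and no other member changed its call. The chromosome 7 median differed by 0.08 to 0.12 without single clones. The spread test called 450 genes with deviations from the mean and 5 above the 40th percentile, and 0 to 5 without single clones, none of them a member, and the cause was not tested. The relation of Snrpn and Ube3a in MEF-1 turned to -0.228 with the chromosome 7 median taken away. Unknown depth limits what low values such as those of Magel2 can show. The alternative of leaving out clones relative to chromosome 7 was chosen after seeing the data.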
